A study of Mus musculus with 435 samples.

Results

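Cholesterol is the substrate of all steroid hormones, and the fetal testis starts to make androgens within days of its formation. The genes described here are 30 genes of cholesterol synthesis, uptake, storage and control, chosen by name, out of 16459 genes in the deposited expression table. Of these, 19 encode enzymes of synthesis, 7 of them up to farnesyl diphosphate and 12 after it. The other 11 are the lipoprotein receptor Scarb1, genes of sterol handling (Stard4, Npc1, Npc2, Soat1 and Abca1) and genes of the sterol sensor (Srebf1, Srebf2, Scap, Insig1 and Insig2).

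The samples are single cells from XY gonads of mouse embryos of a mixed background that carry an Nr5a1-eGFP reporter. Cells were sorted live for eGFP, a step that selects against cell types with a silent reporter. The sorted cells were captured one by one on Fluidigm C1 chips and sequenced from poly-A RNA. All stages share this genotype and sort, and there was no treatment. The labels give embryonic days, with 1 capture at E10.5 and 2 captures at each of the 4 later stages (E11.5, E12.5, E13.5, E16.5). After the filters 396 cells were used, between 30 and 59 in each of the 9 captures. The capture is the replicate. The labels do not say which embryos or litters fed a capture, so each p-value measures only the spread between captures. Where a class of cells has 1 cell in a capture, the spread between single cells enters as well.

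Values are RPKM, read numbers scaled to transcript length and sequencing depth, and 65.7% of all values in the table are 0. E10.5 and E13.5 cells were labelled with 25M reads each and the other stages with 10M. The depth implied by the smallest values had medians of 7.83 to 8.1 M reads per capture in the deeper run and 2.2 to 3.24 M in the other. The first E13.5 capture used a medium chip and all others a small one. In 1 capture, the second at E12.5, 9 cells carried at least 2 germ cell markers.

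As background, cholesterol is built from acetyl-CoA by way of mevalonate, farnesyl diphosphate, squalene and lanosterol. When sterols in the endoplasmic reticulum run low, SCAP escorts the membrane-bound SREBP factors, encoded by Srebf1 and Srebf2, to the Golgi, where they are cut and released to switch on most genes of the pathway. INSIG proteins hold SCAP back when sterols are plentiful. Steroid-making cells also take up cholesterol from lipoproteins through SCARB1 and store it as esters made by SOAT1, and in the fetal testis the Leydig cell is the cell that turns it into androgen.

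Promoter sequences were read next, since the factors above act there. RefSeq promoters (GRCm38.p6, 250 bases before to 50 after the start of transcription) were matched to 24 of the 30 genes. Each motif was searched on both strands, and matches to different motifs were allowed to overlap. The NF-Y box CCAAT was present in 21 of 24 genes, against 41.06% of the 27025 genes with a promoter in that table. The Sp1 box GGGCGG was present in 23 of 24, against 38.2%. The sterol regulatory element core TCACNCCAC was found in 1 of 24, Hmgcs1, against 1.44%, and the Nr5a1 site CAAGGTCA or CAAGGCCA in 1 of 24, Dhcr7, against 4.48%. A gene with several promoters was counted if any of them held the motif. The Nr5a1 site lay in 1 of the Dhcr7 promoters, which held no NF-Y box. Another, at chr7:143829964-143830263, held 2 NF-Y boxes and 3 Sp1 boxes but no Nr5a1 site. The letters of a motif describe a window and do not show that a factor binds there. Sites with other letters, or outside the window, were not searched for, so no match does not mean no site. The 4 stretches of 100 bases below are the Hmgcs1 and Dhcr7 matches, and the NF-Y boxes of Insig1 and Msmo1, which with Idi1 are the 3 members whose levels followed the other enzymes most closely across cells. Capitals mark the motif. In Insig1 it reads ATTGG, since its CCAAT lies on the opposite strand.
Hmgcs1, sterol element, chr13:119690169-119690268, plus strand: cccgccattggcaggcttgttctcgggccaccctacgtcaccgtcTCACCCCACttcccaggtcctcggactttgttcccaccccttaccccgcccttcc
Dhcr7, Nr5a1 site, chr7:143823070-143823169, plus strand: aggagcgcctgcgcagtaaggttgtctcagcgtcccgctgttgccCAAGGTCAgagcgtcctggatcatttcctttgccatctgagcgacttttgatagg
Insig1, NF-Y box, chr5:28071162-28071261, plus strand: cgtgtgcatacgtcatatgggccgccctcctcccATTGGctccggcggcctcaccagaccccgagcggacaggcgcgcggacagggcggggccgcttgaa
Msmo1, NF-Y box, chr8:64733684-64733783, minus strand: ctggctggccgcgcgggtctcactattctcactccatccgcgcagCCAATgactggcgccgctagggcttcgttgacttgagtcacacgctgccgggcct

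The level of a gene was taken as its mean RPKM over the cells of a capture, a scale per transcript length. Hmgcs1, which makes the HMG-CoA that mevalonate comes from, had the highest level of the 30, 171 ± 55.4 RPKM (SD, n = 9 captures). Its captures ranged from 96.5 at E12.5 to 242 at E10.5, and 83.1% of all cells held at least 1 RPKM. Npc2, which carries cholesterol out of the lysosome, came next at 78.1 ± 25.9 RPKM and was detected in the largest share of cells, 89.9%. Fdps, the farnesyl diphosphate synthase, followed at 59.3 ± 36.9, and Lbr, a sterol reductase that is also a receptor of the nuclear envelope, at 54.5 ± 21.5. Fdft1, the squalene synthase, stood at 50.9 ± 22.5, and Acat2, the acetoacetyl-CoA thiolase that opens the pathway, at 46.8 ± 13.1 RPKM. The means ± SD of these last 5 overlap, while Hmgcs1 lay above each of them in every capture. The lowest levels were those of Npc1 (2.96 ± 2.31), Srebf1 (3.82), Idi1 and Lss (3.86 each) and Tm7sf2 (4.40), which likewise lie within their spread of one another.

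**Figure D1:**
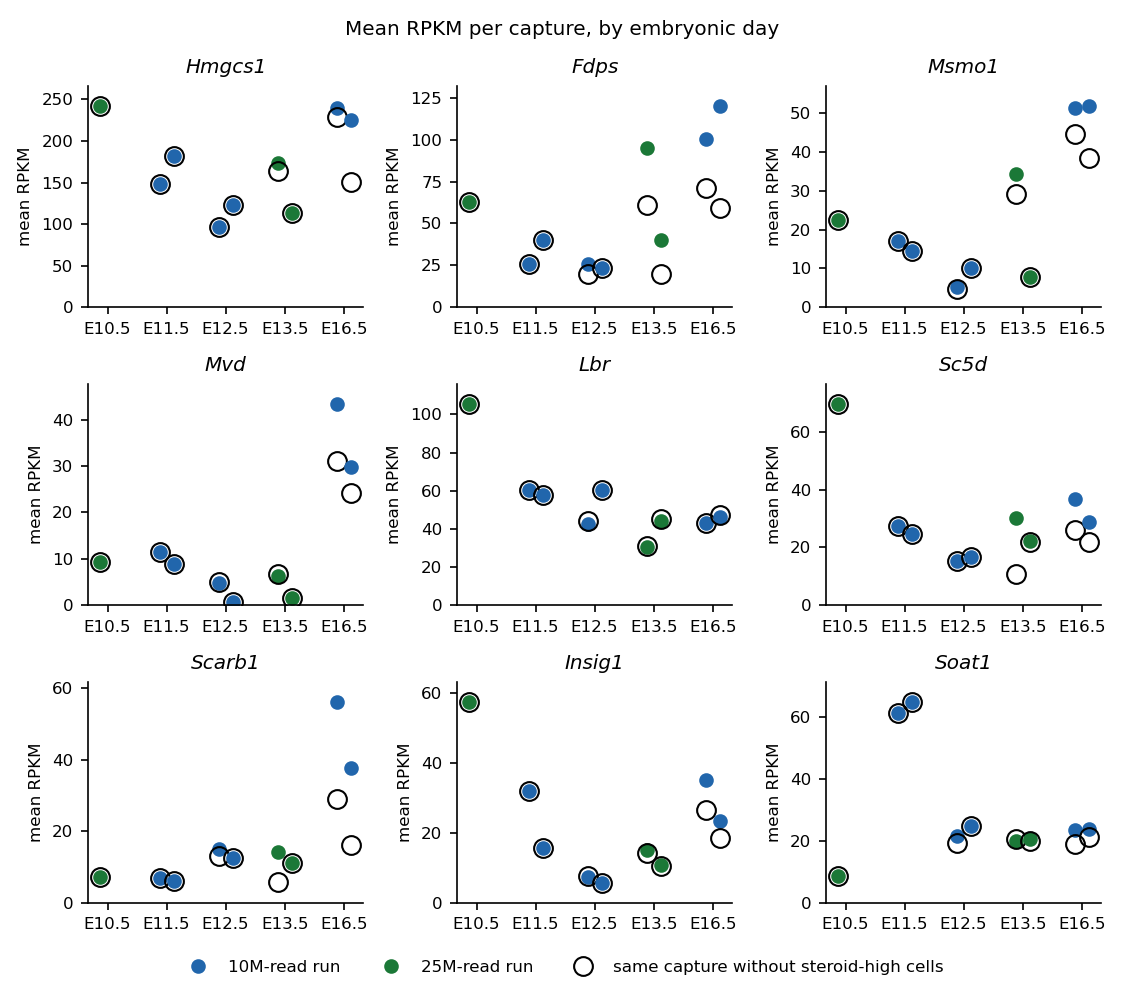
Mean RPKM (vertical axis, from 0) of 9 genes in each of the 9 captures by embryonic day, with blue points for the 10M-read run, green points for the 25M-read run and open circles for the same capture without its steroid-high cells, a class described further on. Soat1 peaks at E11.5 (61.2 and 64.8 RPKM), Mvd is highest at E16.5 (43.4 and 29.8), and the E16.5 points of Scarb1 drop from 56.2 and 37.7 to 29 and 16.1 without the steroid-high cells.

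Behind these means, expression was uneven from cell to cell. The median cell held less than 1 RPKM for 21 of the 30 genes and exactly 0 for 10 of them. Single cells reached 2651 RPKM for Hmgcs1, 2127 for Fdps and 1110 for Sc5d, the lathosterol oxidase. Detection was lowest for Lss, the lanosterol synthase, in 17.7% of cells, and for Mvd, the mevalonate diphosphate decarboxylase, in 18.2%. In capture means, fewer cells with a transcript and less of it per cell cannot be told apart.

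The stages were compared with limma on log2(mean RPKM + 1), so that a fold of a low gene is understated, and p-values were adjusted by Benjamini-Hochberg over 12313 genes with a threshold of 0.05. Differences are given ± SE. Between E11.5 and E12.5, when the testis forms, none of the 30 genes passed, and neither did any other gene (0.0% of all tested, with 961 genes at an unadjusted p under 0.05). Of the 30 differences, 23 were negative, with a median of -0.36 against -0.01 over all genes. Soat1, Insig1, Mvd and Pmvk, the phosphomevalonate kinase, had an unadjusted p under 0.05, all lower at E12.5. Insig1 held 31.9 and 15.7 RPKM in the E11.5 captures and 7.33 and 5.77 at E12.5, a difference of -1.64 ± 0.49 (limma, adjusted p = 0.428).

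From E12.5 to E16.5 the direction was the opposite for most of the pathway, again without a call. Of 30 differences 26 were positive, 17 of 19 among the enzymes, with a median of 0.79 against -0.06 over all genes. Both E16.5 captures lay above both E12.5 captures for 17 of the 30 genes, against 18.3% of all genes tested. None passed the test in limma, where 0.357% of all genes did, and 10 were higher with an unadjusted p under 0.05, against 6.09% of all genes. Mvd held 4.85 and 0.748 RPKM at E12.5 and 43.4 and 29.8 at E16.5, a difference of 3.53 ± 0.71 (limma, adjusted p = 0.0594). Fdps held 25.9 and 23.3 RPKM at E12.5 and 100.0 and 120.0 at E16.5, or 2.11 ± 0.44 (limma, adjusted p = 0.0635). For Msmo1, the methylsterol oxidase, the values were 5.31 and 10.2 RPKM and then 51.3 and 51.9, or 2.65 ± 0.61 (limma, adjusted p = 0.092). With the mean taken over the cells' log2 values, Msmo1 alone passed, at 2.52 ± 0.53 (limma, adjusted p = 0.0135). The captures of the 2 stages did not overlap for these 3 genes.

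Insig1 and Hmgcs1 shared this course. Insig1 stood at 35.1 and 23.3 RPKM at E16.5, 1.98 ± 0.49 above E12.5 (limma, adjusted p = 0.109), and Hmgcs1 at 240.0 and 225, against 96.5 and 123 at E12.5, or 1.08 ± 0.31 (limma, adjusted p = 0.176). Neither difference passed. The factors that switch on the pathway were low throughout: Srebf2 ranged from 2.38 to 6.93 RPKM over the 9 captures and Srebf1 from 1.37 to 11.1. Scap ranged from 6.64 at E10.5 to 35.4 in the second E12.5 capture. Of the 6 genes of uptake, storage and export, Scarb1 stood out by its E16.5 level.

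Scarb1, the receptor that takes cholesterol esters from high-density lipoprotein, rose between E11.5 and E16.5 and was the single gene of the 30 to pass there, where 1.52% of all genes passed. It held 56.2 and 37.7 RPKM at E16.5, 14.2 and 11 at E13.5, 14.9 and 12.4 at E12.5, and 6.94 and 6.2 at E11.5. The captures of the first and last of these stages lay far apart. The difference was 2.64 ± 0.46 (95% interval 1.63 to 3.65; limma, adjusted p = 0.0178). A single cell in each E16.5 capture, with high Cyp17a1 and Cyp11a1 as described below, carried a large part of that level: without these cells the E16.5 captures held 29 and 16.1 RPKM, the difference was 1.58 ± 0.54 and the call was lost (limma, adjusted p = 0.215). Leaving out either capture of E11.5 or of E16.5 ended the call too, with adjusted p between 0.05 and 0.144. Fdps, next in this comparison at 1.73 ± 0.44 (limma, adjusted p = 0.0798), stood at 71 and 59.1 RPKM at E16.5 without those cells. Leaving out the same cells took the median of the 30 differences from 0.60 to 0.15 between E11.5 and E16.5. Between E12.5 and E16.5 it went from 0.79 to 0.52, with 24 of 30 still positive. Both E16.5 captures then lay above both E12.5 captures for 12 of the 30 genes, in place of 17. In limma 7 were higher at an unadjusted p under 0.05, in place of 10, against 6.06% of all genes.

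**Figure D2:**
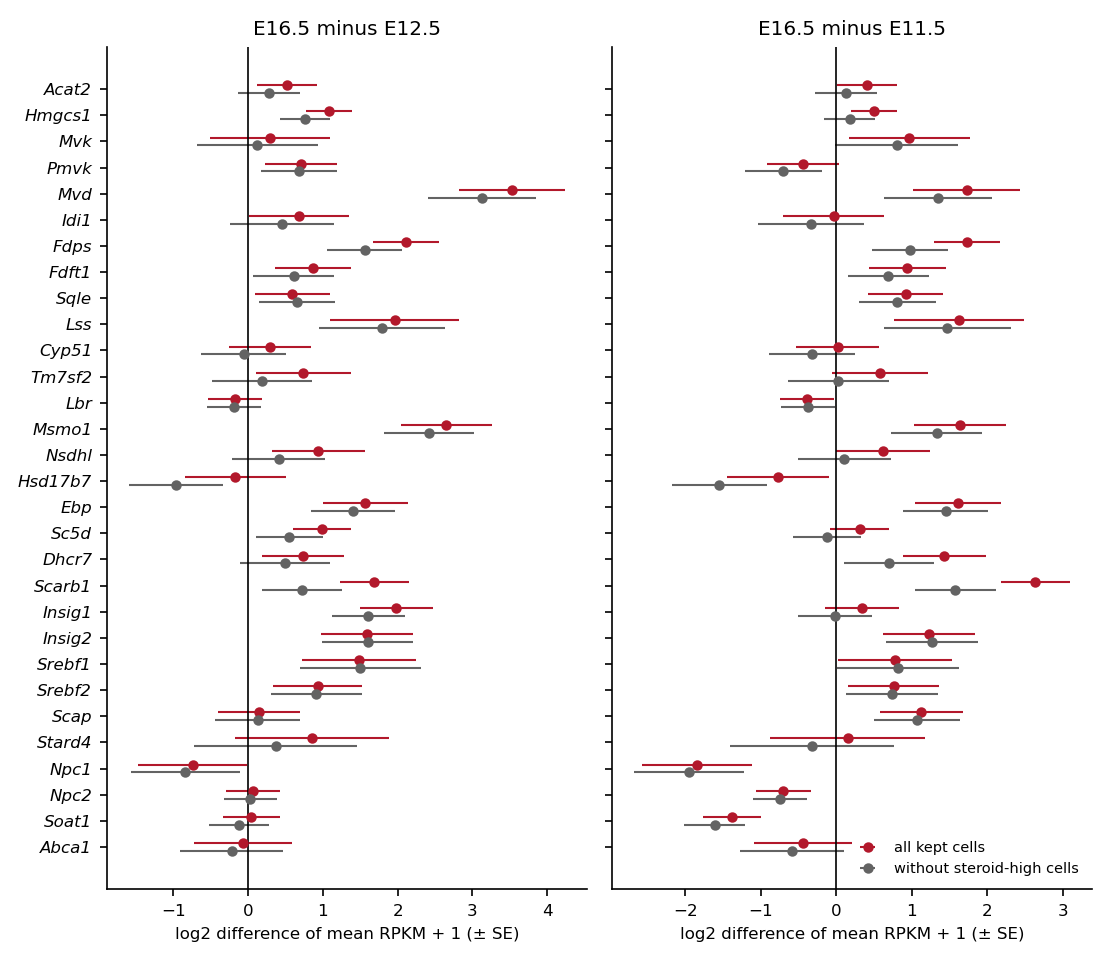
Log2 differences ± SE of the 30 genes for E16.5 minus E12.5 (left) and E16.5 minus E11.5 (right), with all cells in red and without the steroid-high cells in grey. On the left 26 of 30 red points (median 0.79) and 24 of 30 grey points (median 0.52) are positive, and Scarb1 on the right moves from 2.64 to 1.58.

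Soat1, which makes cholesterol esters for storage, was lowest at E10.5 and highest at E11.5. It held 61.2 and 64.8 RPKM at E11.5 and 8.51 at E10.5. The captures of E12.5 gave 21.4 and 24.8 RPKM, those of E13.5 gave 19.9 and 20.7, and those of E16.5 gave 23.4 and 23.9. The E11.5 captures overlapped no other capture, and the 6 later captures lay close together. The median cell held 3.16 RPKM at E10.5 and 32.4 and 50.7 in the E11.5 captures. The rise from E10.5 to E11.5 was 2.75 ± 0.47 (95% interval 1.73 to 3.77; limma, adjusted p = 0.0297), where 0.39% of all genes passed. This comparison was chosen after the values were seen, has 1 capture at E10.5 and crosses the 2 sequencing runs, so stage and run cannot be told apart. It was lost without either E11.5 capture (limma, adjusted p = 0.155 and 0.274) and without the second E13.5 capture (limma, adjusted p = 0.0517). Within the 10M-read run, the E12.5 level was 1.41 ± 0.38 below E11.5 on the log2 scale (limma, adjusted p = 0.386), and the E16.5 level 1.38 ± 0.38 below it (limma, adjusted p = 0.113). Averaged as log2 over cells, the latter difference was -1.79 and passed (limma, adjusted p = 0.0372).

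Within the deeper run, E13.5 was compared with E10.5. No gene of the 30 passed, against 1.06% of all genes, and 4 had an unadjusted p under 0.05. Insig1 held 57.6 RPKM at E10.5 and 15.1 and 10.8 at E13.5, a difference of -2.09 ± 0.60 (limma, adjusted p = 0.168). Lbr held 105.5 RPKM and then 30.6 and 44.2, or -1.49 ± 0.44 (limma, adjusted p = 0.181). Sc5d held 69.9 and then 30.2 and 22.1, or -1.40 ± 0.48 (limma, adjusted p = 0.296). A single cell of the first E13.5 capture held 1110 RPKM of Sc5d, and without the steroid-high cells that capture stood at 10.8. The fourth gene, Soat1, was 1.16 ± 0.47 higher at E13.5 (limma, adjusted p = 0.433).

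Cells that make steroids were picked out by 2 genes: Cyp11a1, which cuts the side chain of cholesterol, and Cyp17a1, which leads on to androgens. With both at 100 RPKM or more there were 8 such cells, called steroid-high here: 1 in the first E12.5 capture, 4 in the first E13.5 capture, and 1 each in the second E13.5 and both E16.5 captures. No cell had both genes between 30 and 100 RPKM. Just outside the rule lay 6 cells, all at E11.5, with Cyp11a1 alone at 114.4 to 442 RPKM, and 3 with Cyp17a1 alone at 202 to 589. All 8 cells also held Insl3 (146 to 7320 RPKM) and Star (104.8 to 2090), markers of Leydig cells. Without the 2 genes of the rule, the other 5 Leydig markers summed to 1310 to 12400 RPKM (median 4810), against a median of 0.0 and a highest sum of 610 in the 221 other cells of E12.5 and later. Among them Hsd3b1 held 987 to 6390 RPKM, while Hsd3b6, a marker of adult Leydig cells, was at 0 in all 8. Lhcgr, on the same list, held 8.56, 0.0, 0.0, 16.8, 0.118, 0.0, 172 and 0.0 RPKM in the order of captures given above. The 4 adrenal cortex markers summed to 0 to 424 RPKM (median 44.7, against 0.0 in other cells). Mc2r, the corticotropin receptor, held 424 RPKM in the cell of the second E13.5 capture and 85.9 in the E12.5 cell, Cyp11b1 held 113.3 in the Sox9 cell named below, and Akr1b7 held 98.8 in another cell of the first E13.5 capture. Cyp21a1 was at 0 in all 8, and in the 221 other cells too. The 7 Sertoli cell markers summed to 22.5 to 13300 RPKM (median 342, against 51.3 in other cells), and the top value belonged to 1 cell of the first E13.5 capture that held all 7 of them, Sox9 included. The 4 germ cell markers were at 0 in all 8. The 5 interstitial progenitor markers summed to 0.22 to 298 RPKM (median 22.2), against a median of 504 in the other cells, and the endothelial list to a median of 0.137. The part of other cell types in the results below was not tested, apart from the fits without the Sox9 cell.

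Taken as a sum over the 19 enzymes, synthesis transcripts reached 881 RPKM in the E12.5 cell, 752, 2507, 3048 and 2323 in the 4 cells of the first E13.5 capture, 1832 in the second, and 4750 and 8407 in the E16.5 cells. The medians of the other cells in these captures were 282, 501, 289, 702 and 439 RPKM. A steroid-high cell ranked first among all cells in 4 of the 5 captures, and rank 3 in the E12.5 capture. Of the 4 cells in the first E13.5 capture, the one at 752 RPKM had rank 20 of 56. In their captures, the E12.5 and E13.5 steroid-high cells were the top cell for 0 to 4 of the 30 genes. That compares with 1.21% to 2.5% of all genes. The 2 E16.5 cells were the top cell of their capture for 15 and 11 of the 30 genes, or 50% and 36.7%, against 2.53% and 2.47% of all genes. They also had more genes detected, 6206 and 6227 against capture medians of 5587 and 4904.5. Their implied depth was higher too, 4.33 and 3.93 M reads against capture medians of 2.62 and 2.7 M. The part of either was not tested.

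**Figure D3:**
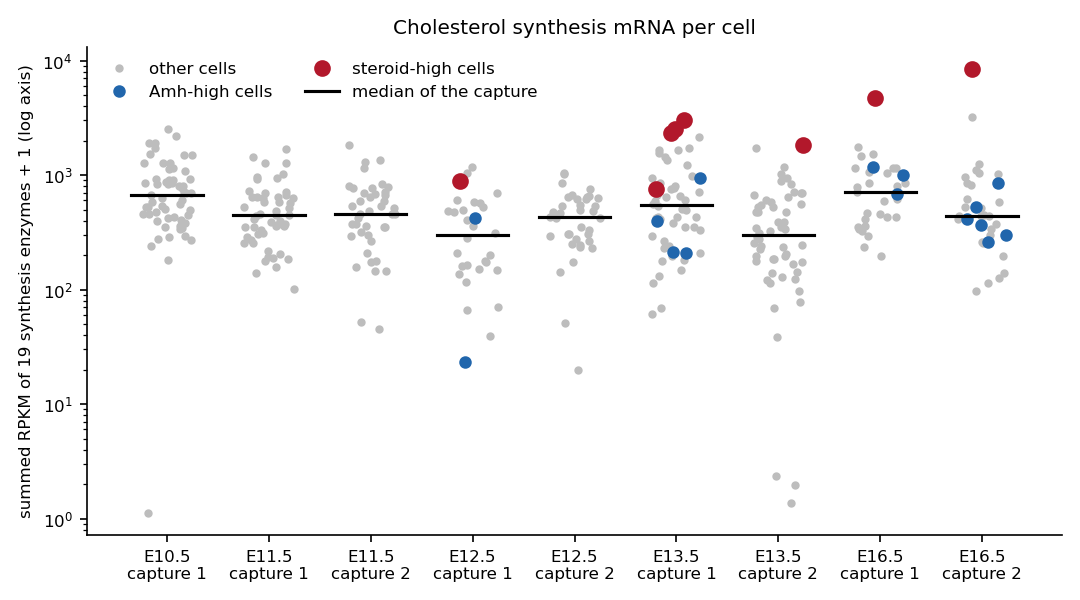
Summed RPKM of the 19 synthesis enzymes plus 1 (log axis) in each cell of the 9 captures, with steroid-high cells in red, Amh-high cells in blue, other cells in grey and a bar at the capture median. The red points are the top cell of both E16.5 captures (4750 and 8407 RPKM) and of both E13.5 captures, where 1 of them sits at 752 RPKM.

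**Figure D4:**
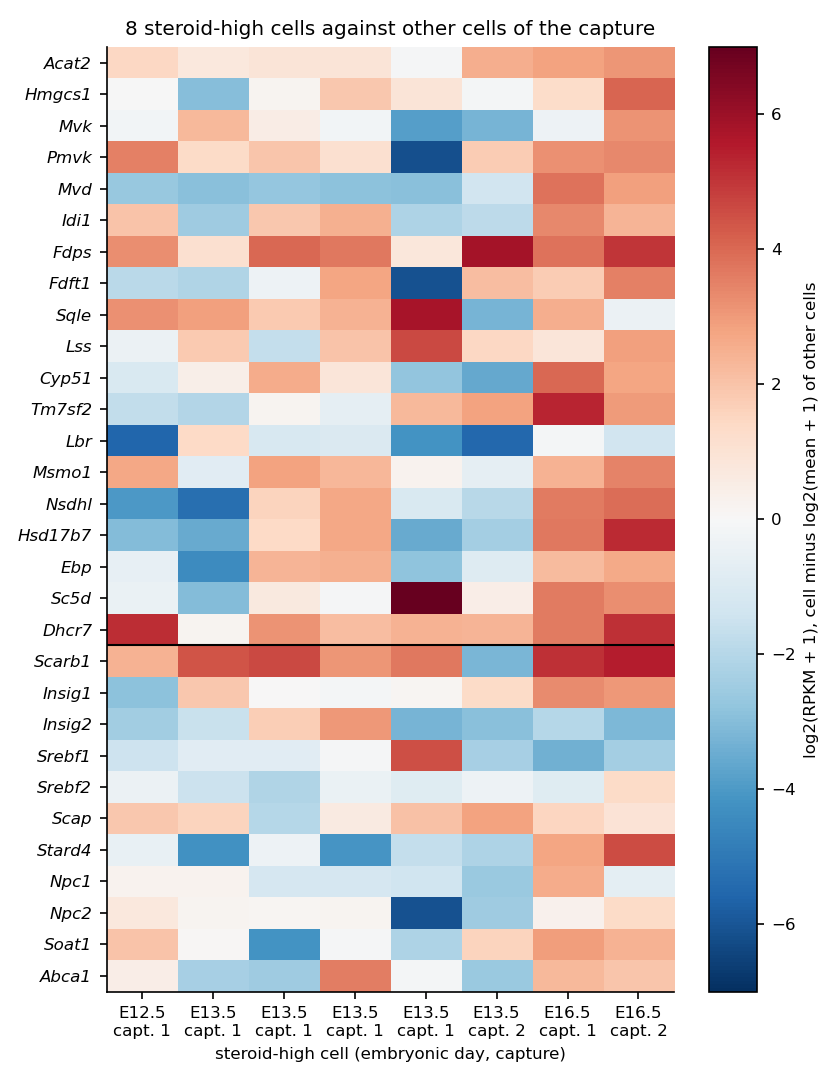
Colour map of the 30 genes (rows, enzymes above the line) in the 8 steroid-high cells (columns), as log2(RPKM + 1) of the cell minus log2(mean RPKM + 1) of the other cells of its capture, with red for higher and blue for lower. The Fdps row is red in all 8 cells, and the E16.5 columns are red for most enzymes.

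Fdps had the largest difference of the 30 in the fits over all 5 captures given below, while in single captures others exceeded it. In the first E12.5 capture, Dhcr7 and Pmvk did so (134 against 2.73 RPKM in other cells, and 150 against 12.1). In the first E13.5 capture, Sc5d, Sqle and Scarb1 did (283 against 7.88, 156 against 7.86, and 122 against 6.34). Scarb1 did in both E16.5 captures (870.0 against 23.9, and 751 against 15.8). Tm7sf2, Cyp51 and Mvd did in the first of these (104.3 against 1.66, 111.4 against 6.06, and 414 against 28.4). Hsd17b7 and Dhcr7 did in the second (189 against 4.05, and 409 against 10.9). In the order of captures used above, the 8 cells held 210, 141, 1057, 859, 114.3, 1166, 972 and 2127 RPKM of Fdps. The means of the other cells were 20.9, 65.1, 19.7, 69.4 and 64.5 RPKM in the 5 captures, and the median of all other cells from E12.5 on was 0.386. Thus every steroid-high cell stood above the mean of the others in its capture. Cells with 100 RPKM or more of Amh, the Sertoli cell hormone, numbered 15 in 4 captures and had Fdps means of 1.6, 10.6, 85 and 34.9 RPKM.

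The planned test took captures with at least 2 cells of a class, which left 1 capture with steroid-high cells, and no gene of the 30 passed it, against 0.00873% of all genes in the comparison with other cells and 0.0262% in that with Amh-high cells. With 1 capture in the steroid-high arm, its spread is taken from the other classes. At an unadjusted p under 0.05, 3 and 6 of the 30 genes were higher, against 1.7% and 4.8% of all genes, and these p-values rest on that assumption. Fdps was 3.52 ± 1.23 higher there than in the other cells (limma, adjusted p = 0.717). A fit with any capture that holds at least 1 steroid-high cell was added after the values were seen, with the capture as a block, and brings in all 5. In it Fdps was 4.19 ± 0.62 higher (95% interval 2.89 to 5.48; limma, adjusted p = 0.00134), Dhcr7, the last reductase of the pathway, 3.73 ± 0.99 (limma, adjusted p = 0.0212), and Pmvk 2.59 ± 0.80 (limma, adjusted p = 0.0361). These 3 of 30 genes compare with 0.629% of all genes that were higher. A capture mean over 1 cell is more often 0 than one over many, and the median of all genes in this fit was -1.2, against 1.15 for the 30 genes. All but the first E13.5 capture hold a single steroid-high cell, which the fit weighs like a mean over many cells. The standard errors and p-values, here and on the log2 average below, thus mix spread between cells with spread between captures.

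Averaging log2 values over cells in place of RPKM brought the median of all genes to -0.07. On that scale 27 of the 30 differences were positive, with a median of 2.77, and 5 genes passed, against 0.646% of all genes that were higher. Fdps stood at 6.72 ± 0.71 (limma, adjusted p = 0.000276), Pmvk at 4.90 ± 0.74 (limma, adjusted p = 0.0056), Dhcr7 at 5.46 ± 0.84 (limma, adjusted p = 0.00637), Acat2 at 4.02 ± 0.74 (limma, adjusted p = 0.0227) and Scap at 3.75 ± 0.77 (limma, adjusted p = 0.0386). Those same 5 genes were the ones whose mean in steroid-high cells exceeded that of other cells in 5 of 5 captures, which held for 0.772% of all genes. Fdps passed in both fits with each of the 5 captures left out in turn, with adjusted p up to 0.0273, and without the Sox9 cell (limma, adjusted p = 0.00161 on RPKM means). In the same log2 fit 1 of 6 Sertoli markers tested, Defb19, was higher too (3.87 ± 0.78; limma, adjusted p = 0.0369). None of the 6 was called lower there, and their median difference was -1.46. On RPKM means the median of all genes was -1.2, with 2023 of 11921 genes called lower and 75 higher. There Sox9, Ptgds, Cst9 and Aard were called lower and none of the 6 higher. The same 4 were called lower on both scales against Amh-high cells, a class picked by a Sertoli gene. The part of Defb19 was not tested. Dhcr7 passed all 5 leave-outs on the log2 scale alone. On that scale Pmvk lost its call without either E16.5 capture, Acat2 without any E13.5 or E16.5 capture, and Scap without any 1 of the 5. On RPKM means Dhcr7 lost it without any 1 of 3 captures and Pmvk without any 1 of the 5.

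Against Amh-high cells, Fdps was 5.52 ± 0.67 higher (limma, adjusted p = 0.000147) and Acat2 3.62 ± 0.85 (limma, adjusted p = 0.0411), where 0.377% of all genes were called higher. On the log2 average, Fdps, Acat2, Pmvk and Dhcr7 passed, against 0.436% of all genes. Fdps passed with each of the 5 captures left out on both scales. The Acat2 call on RPKM means was lost without any 1 of them (adjusted p up to 0.164). On the log2 average Acat2 lost it without the second E16.5 capture (limma, adjusted p = 0.052), and Pmvk and Dhcr7 without any 1 of 3 captures each (adjusted p up to 0.108 and 0.174). This comparison uses the same steroid-high cells as the one above and is not independent of it. Acat2 has a close copy, Acat3, whose reads may be split with it, and the 8 cells held 2.19 to 53.9 RPKM of Acat3 against 60 to 482 of Acat2.

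The other members differed between the 8 cells. Dhcr7 held 134, 12.8, 105.1, 51.7, 63.1, 42.2, 88.8 and 409 RPKM, above the other cells' mean in each capture. Scarb1 held 64.5, 152, 179, 61.2, 95.5, 0.353, 870.0 and 751 RPKM, high in 7 cells and close to absent in the second E13.5 capture. For Hmgcs1 the values were 94.2, 21.1, 197, 649, 330.0, 102.8, 562 and 2651 RPKM, and the E16.5 cells stood far above the means of their neighbours, 231 and 159. Mvd was the most divided: 414 and 219 RPKM in the E16.5 cells and below 0.2 in the other 6. Msmo1 spanned 4.71 to 498 RPKM and Insig1 0.125 to 290.0, both highest in the E16.5 cells. Soat1 ranged from 0.148 to 160.0 RPKM. Lbr lay below the other cells' mean in 5 of 5 captures and missed the threshold (-2.53 ± 0.96; limma, adjusted p = 0.0696). That fit is on RPKM means, where the median of all genes was -1.2 and 12.3% of all differences were positive. The share of all genes below in 5 of 5 captures was not counted. Srebf2, the main factor for cholesterol genes, reached at most 14.4 RPKM in these cells, and Srebf1 was detected in 1 of them.

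The 6 E11.5 cells with Cyp11a1 alone are given as a description. Their synthesis sums were 204, 138, 372, 1308, 481 and 454 RPKM, on both sides of their captures' medians of 443 and 457. Fdps was at 0 in 4 of them. Soat1 ranged from 28.7 to 262 RPKM.

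Dividing cells were set against others in each capture. Cells with Mki67 and Top2a, both made by dividing cells, at 10 RPKM or more numbered 100, and cells with both below 1 numbered 166. Lbr was the single gene of the 30 to pass (1.77% of all genes did). It held 90.4 ± 36.8 RPKM in dividing cells and 36 ± 28.1 in non-dividing cells (SD, n = 9 captures), was higher in dividing cells in 8 of 9 captures, and differed by 1.81 ± 0.43 (95% interval 0.89 to 2.72; limma, adjusted p = 0.044). The exception was the first E11.5 capture, at 79.7 against 84.8 RPKM. Averaged as log2 over cells the difference was 3.08 ± 0.42 (limma, adjusted p = 4.05e-05). Dividing cells had more genes detected in 8 of 9 captures, and the part of that was not tested. The call was lost without any 1 of 6 captures (adjusted p 0.0584 to 0.125), and the size ranged from 1.40 to 3.08 over all alternatives.

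**Figure D5:**
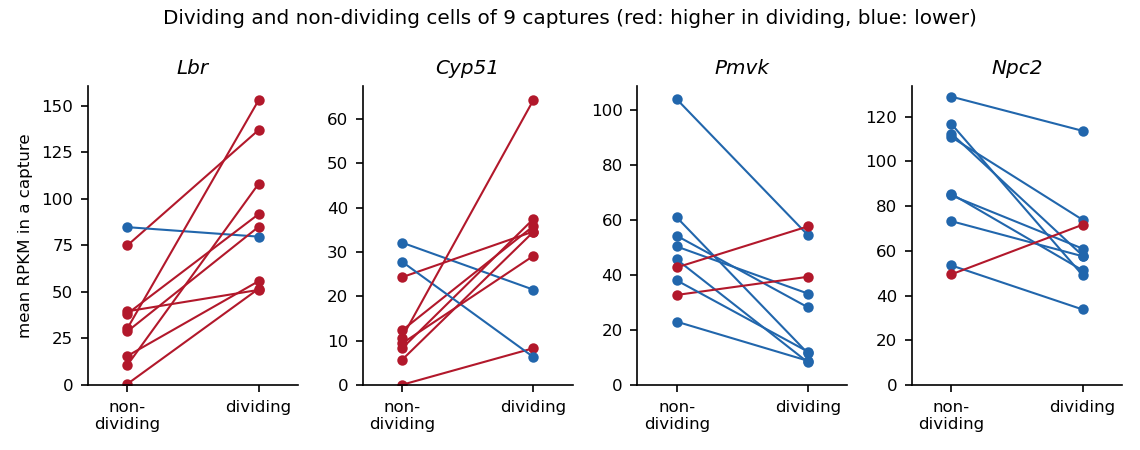
Mean RPKM in dividing and non-dividing cells of each of the 9 captures for 4 genes, with a line joining the means of a capture (red where dividing cells are higher, blue where lower). Lbr is higher in dividing cells in 8 of 9 captures, and Pmvk is lower in 7 of 9.

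No other member passed between dividing and non-dividing cells, and the median of the 30 differences, 0.06, was close to that of all genes, -0.07. Cyp51, which removes a methyl group from lanosterol, held 30.2 ± 17.3 RPKM in dividing and 14.5 ± 10.9 in non-dividing cells, or 1.23 ± 0.50 (limma, adjusted p = 0.376). Pmvk held 28.1 ± 19.4 against 50.1 ± 23.1 RPKM, or -1.03 ± 0.33 (limma, adjusted p = 0.215). Npc2 held 63.3 ± 22.4 against 90.6 ± 28.4 RPKM, lower in 8 of 9 captures, or -0.51 ± 0.21 (limma, adjusted p = 0.383).

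Across cells of a capture, the enzymes followed one another to different degrees. The measure was Spearman's rho between a gene and the summed log2 values of the other enzymes, averaged over the 9 captures, for the 21 members found in at least 30% of cells. The cells of a capture share its chip and run, and the number of genes detected in a cell itself had a rho of 0.45 with the sum, so these values are a description. Idi1, the isopentenyl diphosphate isomerase, and Msmo1 stood highest among the enzymes at 0.46, followed by Hmgcs1 at 0.41, Cyp51 at 0.40 and Fdps at 0.36. Pmvk at 0.13 and Lbr at 0.10 stood lowest, near the median of 0.09 over 5693 genes. Of the genes that are not enzymes of synthesis, Insig1 was the highest at 0.46, between 0.31 and 0.60 over the captures. Scarb1 had 0.25, Scap 0.10 and Npc2 0.08. Outside the 30, Rangap1 and Pgls had 0.32 and Cops5 and Slc25a5 0.30, which are weak.

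Of 44 other genes of the pathway, in 7 lists, 43 were in the file and 40 were tested between stages. None passed between E11.5 and E12.5, E12.5 and E16.5, or E10.5 and E11.5. Hsd3b1, a steroid dehydrogenase of Leydig cells, rose by 4.58 ± 0.56 from E11.5 to E16.5 (limma, adjusted p = 0.00159), and Hsd3b1 and Star by 3.30 ± 0.68 and 5.29 ± 0.85 from E10.5 to E13.5 (limma, adjusted p = 0.0441 and 0.0113). These calls were lost without the steroid-high cells. Hsd3b1 held 12.7 and 2.43 RPKM at E11.5 and 141 and 189 at E16.5, of which 5.05 and 0.736 were left without those cells, a difference of -1.08 ± 0.91 (limma, adjusted p = 0.702). From E10.5 to E13.5 without them, Hsd3b1 differed by -0.59 ± 1.12 and Star by 2.99 ± 0.82 (limma, adjusted p = 0.972 and 0.158). Both belong to the list of cholesterol use for steroids, and none of the lists for SREBP processing, isoprenoid branches, efflux, uptake, ester store or fatty acids held a call between stages. In dividing cells these 2 genes fell by 3.54 ± 0.80 and 3.04 ± 0.72 (limma, adjusted p = 0.0302 and 0.0415), the 2 calls of 40, and both passed without the steroid-high cells (-2.38 ± 0.49 and -2.47 ± 0.60; limma, adjusted p = 0.0136 and 0.0477). In the steroid-high cells, 4 of 38 tested were higher and none lower than in other cells on the log2 average, against 0.646% of all genes that were higher: Star, Hsd3b1, Fdxr, the reductase that feeds electrons to Cyp11a1 (5.36 ± 0.76; limma, adjusted p = 0.00394), and Acly, which makes acetyl-CoA (3.44 ± 0.75; limma, adjusted p = 0.0483). On RPKM means, where the median of all genes was -1.2, 4 were higher (Star, Hsd3b1, Fdxr and its partner Fdx1) and 5 lower (Erlin2, Mbtps2, Nus1, Abcg1 and Lipa). Over all genes in that fit, 75 of 11921 were called higher and 2023 lower, so lower calls were common. Abcg1, a cholesterol exporter, fell against Amh-high cells on the log2 average by 3.82 ± 0.81 (limma, adjusted p = 0.0472). It was not called against other cells on that average. Against Amh-high cells Abcg1 was called lower on RPKM means too, with a difference of -5.27 (limma, adjusted p = 0.0137).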

How the data were processed

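The authors deposited 1 table of RPKM per gene and cell. The unit is not given in the sources used here and was taken from the values, whose steps scale with transcript length. The aligner and counter are likewise not given, and 2 builds, GRCm38.p3 and mm10, stand in the submitters' processing notes. Of 435 labelled cells, 400 were in the table and 35 were not used here. Columns of 1 pair with near-identical profiles were averaged, 3 cells below 3000 detected genes were dropped, and 396 were kept. Mean RPKM per capture, and per class of cells within a capture, was tested as log2(mean + 1) with limma 3.58.1 (R 4.3.3, trend and robust), after a filter of 1 RPKM in at least 2 means, with classes blocked by capture. The classes need at least 2 cells in a capture. Shares of all genes called leave out the genes that define the classes, which were part of the fits and of the adjustment. The members, lists and named genes (all members that pass, the 6 highest, listed genes and the 10 most like the enzymes) were chosen with earlier results of these data known. Fits with 1 cell per class, without steroid-high or germ cells, and E10.5 against E11.5 were added after the values were seen. The pipeline was tested on simulated data. A few genes of the pathway are not reported here.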

Additional observations from a re-analysis of the deposited data

Results flagged for a closer look

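Among the within-capture differences of members between classes of cells, 4 of 60 groups of captures held 1 capture far from the rest, and chance gives about 1 in 20. For dividing minus non-dividing cells, Acat2 was 4.04 on the log2 scale in the second E12.5 capture, which has 2 non-dividing cells, against -1.76 to 0.70 in the others. Nsdhl was 2.17 in the first E13.5 capture, against -1.72 to 0.15. Ebp was -4.51 in the first E11.5 capture, against -0.28 to 3.73. For steroid-high minus other cells, Insig2 was 1.59 in the first E13.5 capture, the capture with 4 such cells, against -3.15 to -2.0 in the others.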

How the results depend on the processing

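With 1 or 2 captures per stage and 1 steroid-high cell in 4 of 5 captures, calls rest on few samples, and the shallow run limits genes near 1 RPKM. Between E12.5 and E11.5 the count of members called was 0 under all 18 alternatives. For E16.5 against E12.5 it went from 0 to 1 with a pseudocount of 5 RPKM (Mvd) and to 1 with log2 averaged over cells (Msmo1), and was 0 to 1 with a capture left out (Fdps, without either E13.5 capture). For E16.5 against E11.5 it went from 1 to 0 with no filter on low values, to 3 with log2 averaged (Msmo1, Scarb1 and Soat1) and to 0 without steroid-high cells, and was 0 to 1 with a capture left out. For E13.5 against E10.5 it went from 0 to 1 with log2 averaged (Sc5d, -3.11 ± 0.58) and to 1 with the 25M-read run alone (Insig1). For E11.5 against E10.5 it went from 1 to 0 with a pseudocount of 5, and was 0 to 1 with a capture left out. Leaving out the E10.5 capture gives no comparison with E10.5.

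For steroid-high against other cells the count went from 0 to 1 with log2 averaged (Scarb1), to 3 with at least 1 cell per class (1 to 3 with a capture left out, 3 without the Sox9 cell), and to 5 with log2 averaged as well (2 to 5 with a capture left out, 5 without the Sox9 cell). Against Amh-high cells it went from 0 to 2 (1 to 2, and 2) and 4 (1 to 7, and 4) under the same settings. Acat2 in steroid-high against other cells (0.17, not called) changed sign without the first or second E16.5 capture, to -0.08 and -0.01, over a range of -0.08 to 0.78 with a capture left out. Leaving out the first E13.5 capture leaves no planned comparison of steroid-high cells. For dividing cells the count went from 1 to 0 with a pseudocount of 0.5 RPKM, to 0 with no filter and to 0 with no replicate block, and was 0 to 1 with a capture left out. No paired analysis was possible between stages because captures of different stages are separate cells on separate chips, and their numbers mark only their order in time. The cause of these changes was not tested.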
